A study of Mus musculus with 14 samples.

Results

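The resting transcriptome of the untreated wild-type mouse kidney was described from 3 RNA-seq libraries out of the 14 in the series. They were chosen by their labels alone, genotype wt and treatment untreated, and no measured value entered the choice. The other 11 libraries were 3 of untreated cKO kidneys, 4 of wt and 4 of cKO kidneys from mice given 15 mg per kg of cisplatin into the peritoneum and killed 4 days later, and no value of theirs was used. The gene altered in the cKO mice was Ripk4, which encodes a serine-threonine kinase. Every library came from kidney tissue, with total RNA extracted in Trizol reagent and prepared with the Illumina TruSeq kit. The labels name no sex, age, strain, Cre line, time of day or batch, and nothing in them says that the 3 untreated wt libraries came from separate animals. The standard deviations (SD) given here therefore measure the spread between these samples, which may be technical. Replicate numbers are names only, and values given in threes are in the order of replicates 1, 2 and 3.

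The kidney filters blood in the glomerulus, where podocytes and fenestrated endothelium form the barrier, and then reclaims most of the filtrate along the nephron. The proximal tubule takes back glucose, amino acids, phosphate, bicarbonate and filtered protein, secretes organic anions and cations, and is driven by the sodium pump and dense mitochondria. The thick ascending limb, the distal convoluted tubule and the collecting duct then adjust salt, calcium, magnesium, acid and water. In RNA from whole tissue, fewer cells of a type and less RNA per cell cannot be told apart.

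Levels are in FPKM, the reads assigned to a gene per kilobase of its length and per 1 M assigned reads, and are written as mean ± SD over the 3 libraries unless all 3 values are given. Every comparison between genes is thus of levels per length. Where the median of a list carries an SD, the median is over the genes' means and the SD is that of the 3 library medians. The libraries held 64.9, 43.7 and 77.0 M reads assigned to genes, so that a single read in a gene of 1 kb stood for 0.0154, 0.0229 and 0.0130 FPKM. A count of 0 in such a gene allowed a level of up to 0.0463, 0.0687 and 0.0390 FPKM (3 reads, counting error only, since the reads carry no molecular identifiers). The libraries resembled each other closely. Pearson's r across the 15094 genes that averaged 0.5 FPKM or more was 0.989, 0.988 and 0.989 for the pairs 1 and 2, 1 and 3, and 2 and 3 on the log2(FPKM + 1) scale, and Spearman's rho was 0.986 for each pair. These describe agreement across genes, which are not independent replicates.

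All 5 segment markers were present at 100 FPKM or more in every library, with Umod highest and Aqp2 lowest. Umod encodes uromodulin, the urinary protein of the thick ascending limb, and stood at 2053, 1925 and 2029.9 FPKM, rank 24 of all genes. Slc34a1, the sodium-phosphate cotransporter of the proximal brush border, stood at 1268, 1378 and 1238 FPKM, rank 40. Slc12a3, the thiazide-sensitive cotransporter of the distal convoluted tubule, stood at 407, 439 and 281 FPKM, so that replicate 3 lay below the other libraries. Lrp2, the endocytic receptor megalin of the proximal tubule, stood at 230.2, 272 and 350.4 FPKM, and Aqp2, the vasopressin-regulated water channel of the collecting duct, at 133, 210.3 and 239 FPKM. Both were lowest in replicate 1 and highest in replicate 3. The marker of each tubule segment in the labelled tissue was therefore present, and the coefficient of variation (CV, SD over mean) ran from 3.39% for Umod to 28.1% for Aqp2.

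In the table's mm10 coordinates, Umod lies at chr7:119462711-119479282, Slc34a1 at chr13:55399648-55414695, Slc12a3 at chr8:94329201-94366214, Lrp2 at chr2:69424340-69586065 and Aqp2 at chr15:99579056-99584545. Umod shares 19.5% of its exon bases with the annotated model Gm44588, and Slc34a1 shares 11.7% with Pfn3, while the exons of Slc12a3, Lrp2 and Aqp2 were free of annotated overlap. Most ranks close to the markers were not separable. Umod stood below Fxyd2, Slc27a2 and Atp1b1 in every library, with no overlap, but its values overlapped those of Gpx1 and Pck1 just beneath it. The values of Slc34a1 overlapped those of its nearest neighbours in rank, Ndrg1, Mdh1, Klk1, Mep1a and Ldhb. The same held for Slc12a3 beside Lactb2, H2-D1, Ahcy, Aco1 and Aes, for Lrp2 beside mt-Rnr2, Acsm3, Agps, Sdhb and Ugt3a1, and for Aqp2 beside Echdc2, Gm10123, Abcd3, Tceb2 and Sec62.

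The promoters of the highest gene and of a marker each of the proximal tubule, the thick ascending limb and the distal convoluted tubule are shown because each holds a letter match to a classical promoter motif. They are RefSeq windows of the 250 bases before the transcript start in GRCm38.p6, written 5′ to 3′ on the gene's strand, at chr6:133853668-133853917 (minus strand) for Kap, chr13:55399398-55399647 (plus strand) for Slc34a1, chr7:119479263-119479512 (minus strand) for Umod and chr8:94328958-94329207 (plus strand) for Slc12a3. Capitals mark TATAAA, the TATA box, searched on the gene's strand, and GTTAAT or its reverse complement ATTAAC, the core of the site of hepatocyte nuclear factor 1 (HNF1) proteins, searched on both strands. The marked matches do not overlap each other.
Kap: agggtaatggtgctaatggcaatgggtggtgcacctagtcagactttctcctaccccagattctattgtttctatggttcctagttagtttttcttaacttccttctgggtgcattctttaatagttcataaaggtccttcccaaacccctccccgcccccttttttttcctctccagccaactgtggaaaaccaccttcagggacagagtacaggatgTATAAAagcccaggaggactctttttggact
Slc34a1: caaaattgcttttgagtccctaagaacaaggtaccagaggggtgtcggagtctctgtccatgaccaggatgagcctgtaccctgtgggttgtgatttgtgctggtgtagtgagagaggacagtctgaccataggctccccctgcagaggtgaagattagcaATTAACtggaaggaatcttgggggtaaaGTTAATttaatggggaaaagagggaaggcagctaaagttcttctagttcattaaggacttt
Umod: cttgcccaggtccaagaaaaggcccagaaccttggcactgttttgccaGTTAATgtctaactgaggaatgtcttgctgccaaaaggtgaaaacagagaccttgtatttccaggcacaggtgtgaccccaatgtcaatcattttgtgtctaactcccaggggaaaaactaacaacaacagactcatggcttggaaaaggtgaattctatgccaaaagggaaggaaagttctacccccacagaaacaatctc
Slc12a3: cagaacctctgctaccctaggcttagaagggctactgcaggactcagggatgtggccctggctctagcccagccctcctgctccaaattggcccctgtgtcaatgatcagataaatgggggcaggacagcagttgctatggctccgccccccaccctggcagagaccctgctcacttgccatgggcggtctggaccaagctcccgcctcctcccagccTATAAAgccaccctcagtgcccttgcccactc
The TATA box match of Kap starts at position -31 and that of Slc12a3 at position -32, counted back from the transcript start. Umod holds a match to the HNF1 core from position -202, and Slc34a1 holds 2, 1 in each direction. Neither motif occurs in the windows of Aqp2 and Lrp2, which says only that these letters are not in the window. Over 19041 RefSeq promoters matched by symbol, the TATA box letters occur in 7.91% and the HNF1 core in 5.79%. The TATA box letters occur in 3.77% of promoters of genes at 1 FPKM or more, and in 12.2% of those under 1 FPKM. Of the 30 highest genes, 17 had a promoter in the table and 5 of these held the TATA box letters. The HNF1 core occurs in 4.18% of promoters of genes at 1 FPKM or more and in 7.47% of those under 1 FPKM. It was found in 8 of 34 promoters of proximal tubule enzyme genes and 3 of 40 of proximal tubule transport genes. Brush border peptidase genes had it in 0 of 9. Thick ascending limb and intercalated cell genes each had it in 2 of 12, and hormone and factor receptor genes in 4 of 30. These are some of the lists counted, and no enrichment was tested. GGGCGG, the core of the GC box bound by Sp1, occurs on either strand in 41.0% of all promoters, 59.2% of those of genes at 1 FPKM or more and 22.2% of the rest. These are counts of letters and not of bound sites.

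Of 49584 genes, 23602 (47.6%) had no read in any of the 3 libraries, and 13574 averaged 1 FPKM or more. Whether a gene reached a given level was read from its mean over the 3 libraries. The levels were steeply graded, since 7613 genes reached 10 FPKM, 1132 reached 100 and 61 reached 1000. The 10 highest genes held 16.6% of the summed FPKM (16.3%, 17.0% and 16.7% by library), the 100 highest 34.2% and the 1000 highest 64.5%, and 383 genes were enough to reach 50% of the sum. Protein-coding genes held 96.7% ± 0.0877 of the sum. The set at the top was stable, with 28 genes among the 30 highest of every library and 32 among the 30 highest of any.

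Kap, the androgen-responsive kidney androgen-regulated protein of the proximal tubule, was the highest gene in every library at 34402, 27425 and 31798 FPKM, 4.44% ± 0.493 of all FPKM. Gpx3, the secreted selenium-dependent glutathione peroxidase that the proximal tubule releases into plasma, followed at 21228, 22836 and 24102 FPKM. The ranges of these genes did not overlap, and Kap stood above Gpx3 in each library. The next ranks belonged to mitochondrial DNA: mt-Co1, a cytochrome oxidase subunit, at 13888, 16810.3 and 14080.3 FPKM, mt-Cytb, cytochrome b of complex III, at 10575, 13318 and 12143 FPKM, and mt-Nd1 and mt-Nd2, subunits of complex I, at 9760.0 ± 751 and 6522 ± 362 FPKM. From Kap to mt-Nd1, no gene's libraries overlapped those of the next, as the plot of the highest genes shows.

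**Figure D1:**
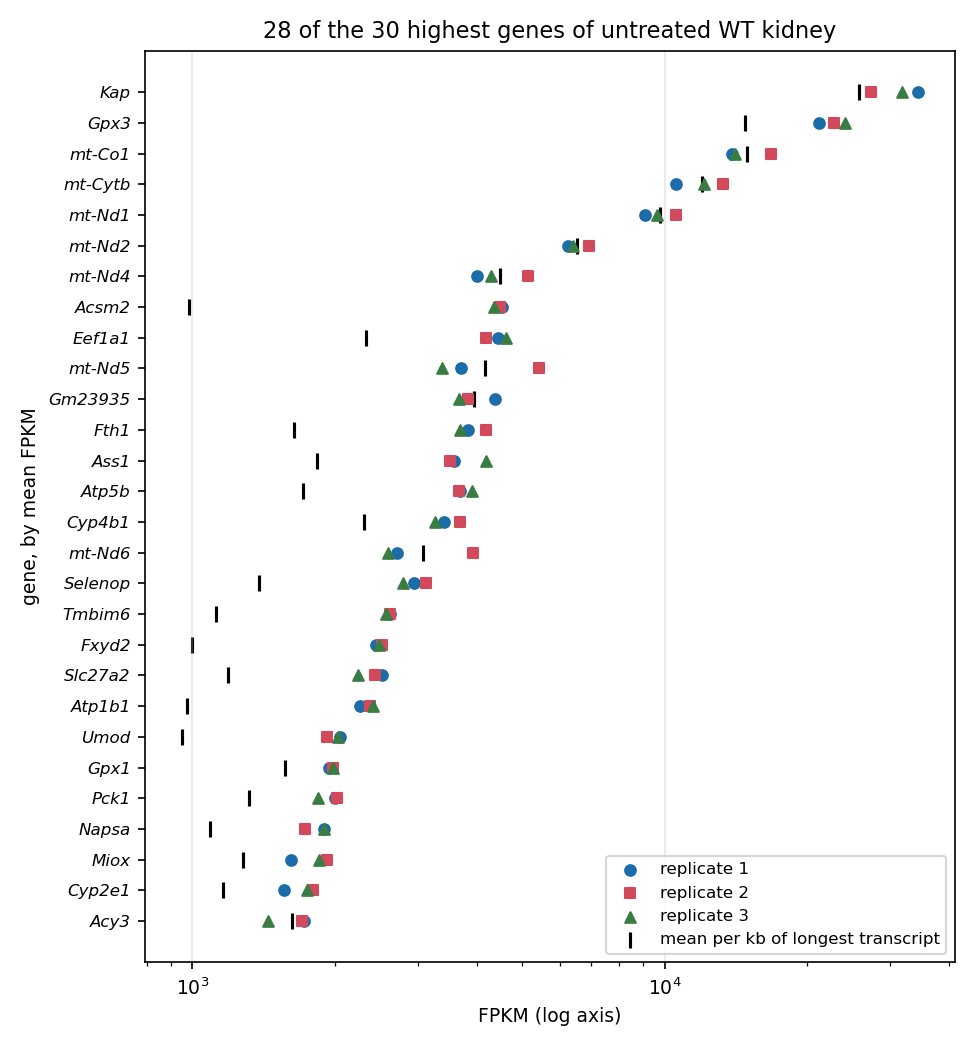
FPKM of 28 of the 30 genes of highest mean level in untreated wt kidney (log axis), with a symbol for each of the 3 libraries and a black tick for the mean recomputed per kilobase of the gene's longest annotated transcript. Kap and Gpx3 stand apart at the top, mitochondrial genes fill ranks 3 to 6, and the tick falls far to the left of the symbols for Acsm2, Fxyd2, Atp1b1 and Umod.

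Below these the order was mostly unresolved. Acsm2, a medium-chain acyl-CoA synthetase, stood at 4532, 4486 and 4349 FPKM with a CV of 2.14%. Ass1, argininosuccinate synthase of arginine synthesis, stood at 3573, 3520.3 and 4195 FPKM, and Cyp4b1, a cytochrome P450, at 3406, 3681 and 3259 FPKM. The ion-moving machinery was represented by Fxyd2 and Atp1b1, the gamma and beta subunits of the sodium pump, at 2483 ± 31.8 and 2354 ± 81.4 FPKM, and by Atp5b, the beta subunit of ATP synthase, at 3761 ± 134 FPKM. Selenop, the plasma selenium carrier, stood at 2951 ± 166 FPKM and Fth1, ferritin heavy chain, at 3901 ± 250.4 FPKM. The group between ranks 24 and 30 held Umod, Gpx1 (cytosolic glutathione peroxidase), Pck1 (the rate-limiting step of gluconeogenesis), Napsa (an aspartic protease of the proximal lysosome), Miox (inositol oxygenase), Cyp2e1 and Acy3 (aminoacylase of mercapturate handling). Each of these 7 genes overlapped the next in rank, from 2003 FPKM for Umod to 1625 for Acy3. Eef1a1, the translation elongation factor, at 4414 ± 219 FPKM and Tmbim6, an endoplasmic reticulum membrane protein, at 2608 ± 27.6 FPKM were the general genes among them. The non-coding model Gm23935, a 57-base gene annotated as a miRNA, stood at 4367, 3829.6 and 3677 FPKM.

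The length behind each value shaped this order. In these data the authors' values resolved to whole reads when a gene's length was the mean over its annotated transcripts, which held for 21717 of 25982 genes above 0 and for 12841 of the 16434 with more than 1 transcript, where the mean and the longest length can differ. The longest transcript was 1.66 times that length in the median gene of at least 1 FPKM. Recomputed per kilobase of the longest transcript, 26 of the 30 highest genes remained among the 30 highest. Acsm2, with 10 transcripts, went from 4456 to 986 FPKM (rank 33) and Umod from 2003 to 951 FPKM (rank 36), and Fxyd2 and Atp1b1 also left the 30 highest. Igkc, Klk1, Igfbp7 and Slc34a1 entered, and mt-Co1 (14926 FPKM, a single transcript) passed Gpx3 (14811 FPKM). Lrp2, whose longest transcript is 15460 bases, went from 284 to 103 FPKM, rank 339 to 616. Levels of long multi-transcript genes such as Lrp2 are therefore tied to the length convention.

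Proximal tubule genes dominated the segment lists. All 47 genes of uptake and transport reached 1 FPKM, with a median of 169 FPKM against 12.4 FPKM over all genes of at least 1 FPKM. The enzyme list of 43 genes, which counts the androgen-regulated protein Kap with the enzymes, had a median of 396 FPKM. Together its genes held 13.0% ± 0.496 of all FPKM in the kidney, and Kap alone held 4.44% ± 0.493 of all FPKM. The lists were chosen with earlier results of these data known, so their medians describe levels only. Slc27a2, a very-long-chain fatty acid transport protein and acyl-CoA synthetase, led the transporters at 2521, 2433 and 2238 FPKM, clear of Slc34a1. Slc22a12, the urate exchanger URAT1, stood at 945, 899 and 736 FPKM, with 30.1% of its exon bases shared with Nrxn2. Atp11a, a phospholipid flippase, stood at 795, 889 and 695 FPKM, and Slc13a3, the sodium-dicarboxylate cotransporter of the basolateral side, at 496, 646 and 539.7 FPKM. Aqp1, the constitutive water channel of proximal tubule and thin limb, stood at 423, 424 and 527 FPKM, and the lowest member, Abcc4, an efflux pump, at 7.28, 9.47 and 10.5 FPKM.

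The pairs of transporters that share a substrate differed widely in level. Slc5a2, the high-capacity glucose cotransporter SGLT2 of the early proximal tubule, stood at 390.5, 458 and 473 FPKM, whereas Slc5a1, the high-affinity SGLT1 of the late part, stood at 17.6, 14.04 and 15.6 FPKM. The ratio Slc5a2 over Slc5a1 was 22.1, 32.6 and 30.2 by library. For phosphate, Slc34a1 was 18.1, 18.6 and 15.5 times Slc34a3, the other cotransporter of the brush border (70.1, 74.1 and 80.1 FPKM). Among organic ion carriers, Slc22a6 (OAT1, basolateral uptake of anions) stood at 327 ± 32.8 FPKM and Slc22a8 (OAT3) at 123 ± 14.8 FPKM. The cation carrier Slc22a2 stood at 186 ± 13.3 FPKM, and Slc47a1, the luminal cation and proton antiporter, at 401 ± 34.3 FPKM. Bicarbonate exit through Slc4a4 was represented by 405 ± 30.9 FPKM, and luminal sodium-proton exchange through Slc9a3 by 39.05 ± 4.32 FPKM. The endocytic partners of Lrp2 also differed, with Dab2, its adaptor, at 311 ± 11.8 FPKM, Amn, amnionless, at 98.9 ± 1.04 FPKM, and Cubn, cubilin, at 58.4 ± 11.6 FPKM.

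Genes known from the early and the late proximal tubule were both well represented. The median by library was 200, 170 and 214 FPKM for the 6 early genes and 110, 112 and 111 FPKM for the 7 late genes. In the late list, Slc7a13, a cystine and aspartate carrier that pairs with rBAT, stood at 633, 481 and 489 FPKM, and Slc6a18, a neutral amino acid transporter, at 156, 128 and 149 FPKM. In the early list, Slc6a19, the main neutral amino acid transporter B0AT1, stood at 251, 184 and 209.7 FPKM and Slc5a12, a lactate cotransporter, at 117, 95.3 and 130.1 FPKM. Replicate 2 was the lowest library for 4 of the 6 early and 5 of the 7 late genes, beside 38.2% of all genes at 1 FPKM or more. The list of brush border peptidases split into a high and a low tier. Ggt1 (gamma-glutamyltransferase), Mep1a (meprin alpha) and Tmem27 (collectrin, which carries amino acid transporters to the surface) stood at 1536 ± 65.2, 1283 ± 68.01 and 1208 ± 146 FPKM. The next member, Anpep (aminopeptidase N), stood at 136 ± 7.18 FPKM and the lowest, Xpnpep2 (aminopeptidase P), at 6.53 ± 1.23 FPKM. Ace, the angiotensin-converting enzyme, stood at 129, 136 and 119 FPKM.

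The enzyme list ranged from Kap and Gpx3 to the vitamin D hydroxylases. Besides those in the 30 highest, Ces1f, a carboxylesterase, stood at 1409 ± 82.7 FPKM, Inmt, which methylates indoleamines, at 1009.8 ± 68.6 FPKM and Sord, sorbitol dehydrogenase, at 925 ± 80.7 FPKM. Creatine synthesis was present through Gatm at 556 ± 53.8 FPKM and fructose phosphorylation through Khk at 558 ± 18.3 FPKM. Among 19 genes of gluconeogenesis and ammonia formation, 15 reached 100 FPKM, among them Pck1 (1962 ± 99.1 FPKM), Fbp1 (fructose bisphosphatase, 1529 ± 101 FPKM) and Mdh1 (1327 ± 65.6 FPKM). G6pc, which releases free glucose, stood at 132, 219 and 243 FPKM, lowest in replicate 1. The mitochondrial form Pck2 was the lowest of the list at 5.38 ± 0.624 FPKM. Of glycolysis, Ldhb, the heart-type lactate dehydrogenase, stood at 1278 ± 89.2 FPKM and Ldha at 736 ± 23.6 FPKM. The hexokinase Hk1 stood at 96.1 ± 3.56 FPKM, whereas Hk2 stood at 0.338 ± 0.114 FPKM.

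Of the 32 fatty acid oxidation genes, 30 reached 1 FPKM. Acadm, the medium-chain acyl-CoA dehydrogenase, stood at 1209 ± 33.2 FPKM, Cat, peroxisomal catalase, at 787 ± 20.5 FPKM and Etfa, which passes electrons to the respiratory chain, at 418 ± 6.76 FPKM. The isoforms of carnitine palmitoyltransferase were unequal, with the liver form Cpt1a at 173, 138 and 127 FPKM and the muscle form Cpt1b at 0.774, 0.681 and 0.331 FPKM. The lowest member was Fabp1, the liver fatty-acid-binding protein, at 0.0558, 0 and 0.0235 FPKM, with no overlapping gene annotated. Fabp3 stood at 79.1, 80.5 and 97.5 FPKM. Within the medium-chain acyl-CoA synthetases, Acsm2 alone held 89.8% of the family's FPKM. Acsm1, named in the series title, stood at 153, 138 and 121 FPKM, Acsm3 at 333, 303 and 219 FPKM, Acsm5 at 92.4, 85.5 and 76.02 FPKM and Acsm4 at 0.0362 FPKM. Ripk4, the other gene of the title, stood at 7.18, 8.11 and 8.51 FPKM, rank 8418, in these wt kidneys.

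Of the distal segments, the thick ascending limb list had a median of 33.9 ± 1.38 FPKM, with 15 of 17 genes at 1 FPKM or more. Egf, the precursor of epidermal growth factor, stood at 588, 542 and 585 FPKM and Slc12a1, the loop-diuretic target NKCC2, at 285, 278 and 307 FPKM. Cldn10, the sodium-selective claudin of the paracellular route, stood at 113 ± 10.8 FPKM, and Kcnj1, the potassium channel ROMK, at 75.1 ± 3.38 FPKM. Cldn16 and Cldn19, which together let magnesium and calcium pass, stood at 7.31 ± 0.325 and 13.9 ± 1.45 FPKM. The calcium-sensing receptor Casr stood at 14.4 ± 1.75 FPKM, while Cldn14, which Casr is known to control, was at 0.0285, 0 and 0.01202 FPKM and Enox1 at 0.181, 0.314 and 0.379 FPKM. The summed proximal transport genes were 3.91, 4.09 and 3.75 times the summed thick ascending limb genes by library. Umod made up most of the latter sum, and the ratio depends on which genes were listed. The plot of segment lists shows this grading from proximal to distal genes.

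**Figure D2:**
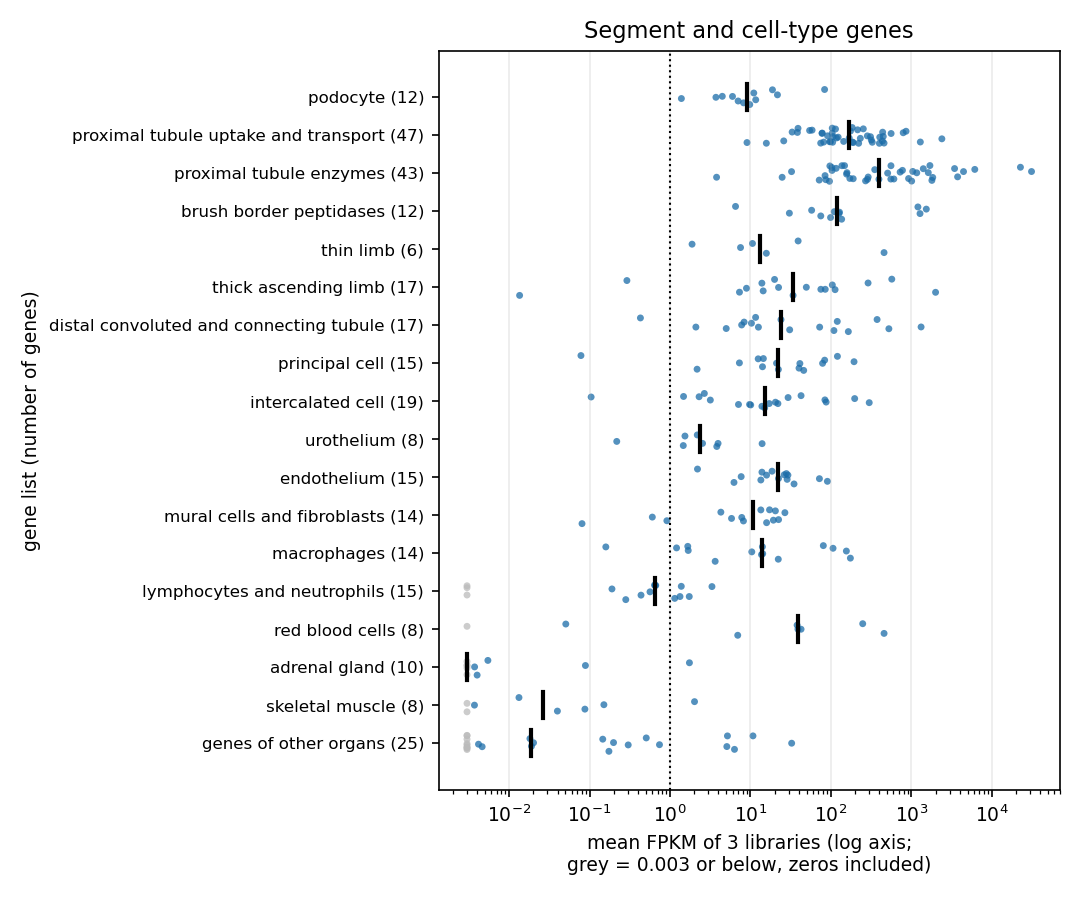
Mean FPKM over the 3 libraries (log axis) of every gene in 18 segment and cell-type lists, a point per gene, with a black bar at the list median and a dotted line at 1 FPKM. Proximal tubule lists lie mostly above 100 FPKM (medians 169 and 396), distal, vascular and glomerular lists between 1 and 100, and adrenal, muscle and other-organ lists mostly near 0.

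In the distal convoluted and connecting tubule, Klk1, tissue kallikrein, was the highest at 1221, 1281 and 1466 FPKM. S100g, calbindin-D9k, stood at 567, 474 and 537 FPKM and Calb1, calbindin-D28k, at 119, 102 and 106 FPKM, and both carry calcium through the cell. The entry channels were low beside them, with the calcium channel Trpv5 at 4.99, 5.05 and 4.97 FPKM and the magnesium channel Trpm6 at 2.201, 2.12 and 1.97 FPKM. Kl, klotho, the co-receptor for fibroblast growth factor 23, stood at 165 ± 5.14 FPKM. The kinases Wnk1 and Wnk4, which act on Slc12a3, stood at 120.1 ± 5.07 and 72.5 ± 7.13 FPKM, and Stk39, the kinase SPAK between them and the transporter, at 23.99 ± 1.45 FPKM. Fgf13 was the lowest at 0.429 FPKM. Slc12a1 was 0.702, 0.633 and 1.09 times Slc12a3 by library, so the order of the loop and distal cotransporters changed in replicate 3.

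Principal cells were represented by Aqp2 and by the basolateral water channels Aqp3 at 118, 117 and 127 FPKM and Aqp4 at 17.9, 17.7 and 27.8 FPKM. The subunits of the epithelial sodium channel stood at 37.95, 49.7 and 50.2 FPKM for Scnn1a, 22.6, 23.1 and 21.1 for Scnn1b and 11.9, 13.3 and 12.3 for Scnn1g, alpha above beta above gamma in each library. Hsd11b2, which protects the mineralocorticoid receptor from glucocorticoids, stood at 83.7 ± 5.26 FPKM and that receptor, Nr3c2, at 7.295 ± 0.491 FPKM. The vasopressin receptor Avpr2 was listed at 0.103, 0.0457 and 0.0865 FPKM, and 81.3% of its exon bases overlap Arhgap4. Intercalated cells were represented by Car2, carbonic anhydrase 2 (also abundant in other cells), at 277, 279 and 343 FPKM, by the proton pump subunits Atp6v0a4 and Atp6v1b1 at 198 ± 5.48 and 84.4 ± 6.21 FPKM, and by Rhcg, an ammonia channel, at 68.3, 93.3 and 100.4 FPKM. Slc4a1, the acid-secreting cell's anion exchanger, and Slc26a4, pendrin of the base-secreting cell, stood at 42.6 ± 0.925 and 20.5 ± 1.67 FPKM. Foxi1, their transcription factor, stood at 10.1 ± 0.407 FPKM. Car15 was the lowest at 0.105 FPKM, with 65.7% of its exon bases shared with Gm20518.

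The glomerulus left a clear but lower trace. All 12 podocyte genes reached 1 FPKM, with a median of 9.02 ± 1.44 FPKM. Podxl, podocalyxin, which endothelium also makes, stood at 88.5, 77.1 and 85.05 FPKM. Nphs1, nephrin of the slit diaphragm, stood at 11.4, 9.47 and 12.1 FPKM. Wt1, the podocyte transcription factor, stood at 7.63, 5.28 and 5.05 FPKM. Endothelial genes had a median of 22.3 ± 0.868 FPKM, with Plvap, the diaphragm protein of fenestrated capillaries, at 90.5 ± 4.58 FPKM and Kdr, the main receptor for vascular endothelial growth factor, at 22.3 ± 0.868 FPKM. Vegfa, its ligand, stood at 228, 222 and 177 FPKM. Mural and fibroblast genes had a median of 10.8 ± 1.46 FPKM. Col1a2, Acta2 and Pdgfrb, a collagen chain, smooth muscle actin and a pericyte receptor, stood at 26.8 ± 2.504, 19.3 ± 3.95 and 7.81 ± 0.614 FPKM. Of the 11 mural genes at 1 FPKM or more, 10 (90.9%) were highest in replicate 1, beside 45.03% of all 13574 genes at that level. Ren1, renin of the juxtaglomerular cells, stood at 76.7, 52.5 and 69.9 FPKM, and Epo, erythropoietin of interstitial cells, at 0.0406, 0.0301 and 0.171 FPKM.

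Immune and blood genes differed in level between libraries. Of 13 macrophage genes at 1 FPKM or more, 10 (76.9%) were highest in replicate 1, 3 in replicate 2 and 0 in replicate 3, beside 45.03%, 25.5% and 29.4% of all genes at that level. Cd74, the class II invariant chain, stood at 185, 188 and 151 FPKM and C1qa, a complement chain made by resident macrophages, at 14.97, 13.8 and 13.5 FPKM. Lymphocyte and neutrophil genes were low, with a median of 0.643 FPKM and 3 of 15, Ly6g, Mpo and Elane, at 0 in all libraries. All 6 red cell genes at 1 FPKM or more were highest in replicate 1 and lowest in replicate 2, among them Slc4a1, also a gene of intercalated cells, and the globins Hbb-bs at 530.4, 363 and 482 FPKM and Hba-a1 at 290.4, 199.9 and 256 FPKM. Of all genes at 1 FPKM or more, 45.03% were highest in replicate 1 and 38.2% lowest in replicate 2. The embryonic globin Hbb-bh1 was at 0 in every library. The part of retained blood or cell makeup in other values of replicate 1 was not tested.

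The constant genes Igkc and Igha stood above the B-cell gene Cd79a in every library. Immunoglobulin genes were singled out after their values were seen. Igkc, the kappa constant gene, stood at 1056, 968 and 1586 FPKM, rank 46, Igha, the IgA heavy chain constant gene, at 529, 514 and 861 FPKM, and Jchain, which joins IgA and IgM polymers, at 143, 132 and 233 FPKM. All 3 were highest in replicate 3. Ighm, the IgM constant gene, ran the other way at 62.02, 12.7 and 6.37 FPKM, so that Igha over Ighm was 8.54, 40.5 and 135 by library. The 218 variable genes summed to 1621, 1417 and 2643 FPKM, and 158 of them reached 1 FPKM. In contrast Cd79a, a B-cell receptor chain, stood at 2.83, 2.95 and 4.201 FPKM and Tnfrsf17, the plasma cell receptor BCMA, at 0.662, 0.309 and 0.526 FPKM. Immunoglobulin constant and variable genes made up 0.479%, 0.432% and 0.738% of all FPKM.

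Genes of neighbouring tissues were low. Of 10 adrenal genes, Star, the cholesterol carrier of steroid synthesis, reached 2.02, 1.702 and 1.51 FPKM, while Cyp11b1, Cyp11b2, Nr5a1, Th and Pnmt were at 0 in every library. Of 8 skeletal muscle genes, Mylpf stood at 2.02, 2.06 and 1.98 FPKM and Myh4 and Tnnc2 at 0. Adipose genes were led by Cfd, adipsin, at 4.43, 2.11 and 2.86 FPKM. Urothelial genes had a median of 2.36 ± 0.721 FPKM, and 6 of the 7 at 1 FPKM or more were highest in replicate 2, beside 25.5% of all genes at that level, for example Upk3a, a uroplakin, at 3.64, 5.4002 and 2.84 FPKM. Of 25 genes typical of other organs, 5 reached 1 FPKM and 8 were at 0, beside 13574 and 23602 of all 49584 genes. The list median was 0.0190 FPKM and that of all genes 0.00546 FPKM. These counts therefore do not set the list below the genes at large. Apob, the lipoprotein scaffold, stood at 26.7, 28.5 and 42.5 FPKM and Alb, albumin, at 9.501, 10.4 and 12.4 FPKM, while Ins1, Snap25 and Prm1 of pancreatic islet, neuron and sperm were at 0. Sensory receptor families were at or near 0, since 0 of 1409 olfactory receptor genes reached 1 FPKM (1340 at 0) and 0 of 330 vomeronasal receptor genes (313 at 0).

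Within large families, a few members carried a large share of the level. The solute carriers numbered 394, of which 277 reached 1 FPKM and 23 were at 0, and the 10 highest held 38.2% of their summed FPKM. After Slc27a2 and Slc34a1 came Slc25a5, the mitochondrial ADP and ATP exchanger, at 987 ± 48.9 FPKM, Slc22a12, Slc25a39, which imports glutathione into mitochondria, at 749.6 ± 20.6 FPKM, and Slc25a3, the mitochondrial phosphate carrier, at 630.3 ± 17.2 FPKM. In this order Slc22a12 overlapped Slc25a39, and from Slc25a3 at rank 6 of the family to Slc17a1 at rank 11 each carrier overlapped the next. Among 12 aquaporins, Aqp1 held 52.0% of the FPKM and 5 members were below 1 FPKM. Among 35 claudins, Cldn2, the leaky claudin of the proximal tubule, held 60.7% at 483, 379 and 419 FPKM, and 12 claudins were at 0. Of 119 cytochromes P450, 40 reached 1 FPKM, and Cyp4b1 alone held 43.4%. Among 99 potassium channel genes, Kcnj15 and Kcnj16, inward rectifiers of the basolateral membrane, stood at 426 ± 7.37 and 281 ± 14.7 FPKM. Of 82 defensin genes, 69 were at 0, while Defb29 and Defb1 stood at 120.0 ± 3.56 and 118 ± 11.4 FPKM. Of 50 ABC transporters, Abcg2, an efflux pump for urate and drugs, was the highest at 318 ± 27.7 FPKM. Among metallothioneins, which bind zinc and copper, Mt1 stood at 113, 96.7 and 81.7 FPKM but Mt2 at 0.377, 0.305 and 0.116 FPKM, and 73.5% of the exon bases of Mt2 overlap the model RP23-98C9.5.

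Receptors and transcription factors spanned a wide range of levels. Of 37 receptor genes, Ghr, for growth hormone, stood at 549.9, 574 and 576 FPKM, Pth1r, for parathyroid hormone, at 489.6, 506 and 517 FPKM, and Vdr, for active vitamin D, at 349, 251 and 211 FPKM with replicate 1 highest. The angiotensin receptor Agtr1a stood at 35.4 ± 2.49 FPKM, while Agtr1b and Agtr2 stood at 0.007303 and 0.0426 FPKM. Of 42 kidney transcription factors, 39 reached 1 FPKM. Hnf4a, the proximal tubule regulator, stood at 457, 477 and 488 FPKM and Esrra, which drives mitochondrial genes, at 169, 203 and 194 FPKM. Pax8 and Pax2, which specify nephron cells, stood at 46.5, 64.4 and 47.2 FPKM and at 16.2, 19.5 and 14.5 FPKM. Both were highest in replicate 2, as were 11 of the 39 factors, while 21 were highest in replicate 1 and 7 in replicate 3. The shares over all genes at 1 FPKM or more were 45.03%, 25.5% and 29.4% for replicates 1, 2 and 3. Six2, of the embryonic nephron progenitor, was at 0 in every library.

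Antioxidant genes all lay above 10 FPKM. After Gpx3, Selenop and Gpx1 came Prdx5, a peroxiredoxin, at 1083 ± 65.3 FPKM and Gpx4, which reduces lipid peroxides, at 869 ± 18.5 FPKM. Hmox1, the inducible heme oxygenase, was the lowest of the 21 at 20.996, 25.97 and 19.8 FPKM. Injury genes at rest spanned a wide range, with Spp1, osteopontin, at 358, 312 and 361 FPKM and Clu, clusterin, at 195, 191 and 181 FPKM, but Havcr1 (kidney injury molecule 1) at 5.44, 5.24 and 7.06 FPKM, Lcn2 (the neutrophil gelatinase-associated lipocalin) at 3.45, 2.64 and 1.46 FPKM and Il6 at 0. Genes known to be higher in male mouse kidney were high, with 7 of 7 averaging above 100 FPKM over the libraries. Of all 13574 genes at 1 FPKM or more, 1132 reached 100 FPKM. The 7 include Slco1a1 at 189.6 ± 21.5 and Cyp2j13 at 217 ± 20.4 FPKM. The 4 genes known to be higher in females had a median of 3.29 FPKM. The Y-linked Eif2s3y, Ddx3y, Uty and Kdm5d stood at 40.9 ± 4.22, 21.2 ± 0.232, 9.33 ± 0.4796 and 5.51 ± 0.483 FPKM, while Xist, made from the inactive X chromosome, stood at 0.009798 FPKM.

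Mitochondrial DNA supplied 7.45%, 9.18% and 7.74% of all FPKM. Its 13 protein genes are transcribed from long common precursors, yet the means of 7 lay between 3076 and 14926 FPKM and those of 6 between 1.36 and 347 FPKM. The low 6 were mt-Co2 at 504, 213 and 325 FPKM, mt-Co3 at 195, 118 and 157, mt-Atp6 at 139.8, 167 and 151, mt-Nd4l at 134, 127 and 55.7, mt-Nd3 at 78.4, 82.5 and 83.6 and mt-Atp8 at 1.13, 1.35 and 1.59 FPKM, and they lie side by side between mt-Co1 and mt-Nd4. A stretch of chromosome 1 (chr1:24611535-24616197) holds annotated copies of mitochondrial genes at 99.7% identity or more. Of the low genes, 5 had a copy over 98.99% to 99.9% of their length, whereas 5 of the 7 high genes had none, mt-Co1 was covered over 31.3% and mt-Nd4 over 63.6%. The copies themselves stood at 38.4 to 183 FPKM. mt-Atp8 had no annotated copy and overlaps mt-Atp6. How reads that fit both places were counted is not given in the sources used here, and the part of the copies in these levels was not tested.

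**Figure D3:**
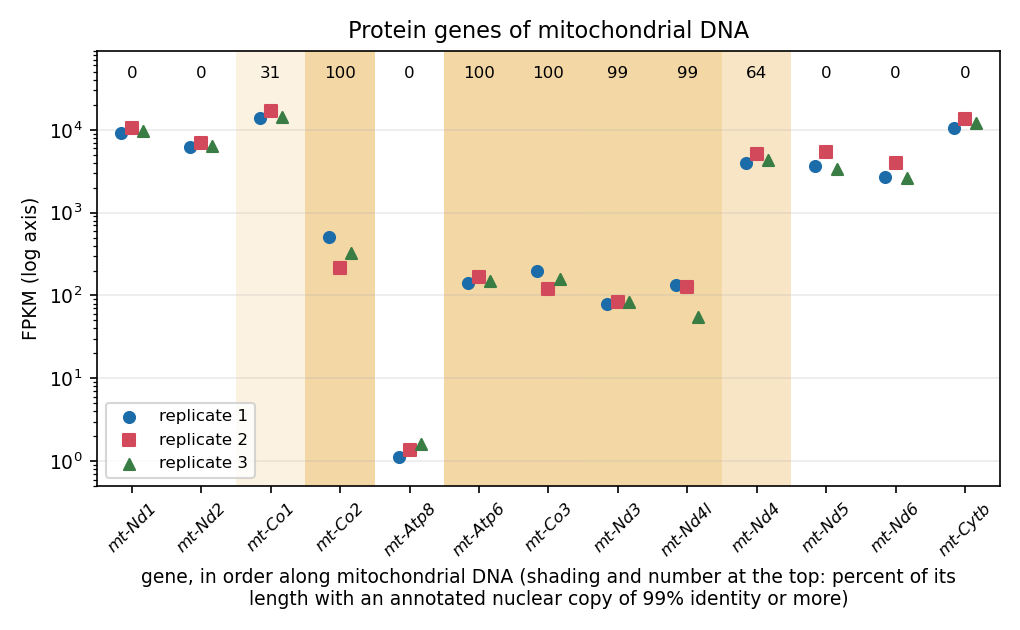
FPKM (log axis) of the 13 protein genes of mitochondrial DNA in their order along it, with a symbol per library and, as shading and a printed number, the percent of each gene's length with an annotated nuclear copy of at least 99% identity. In every library the genes from mt-Co2 to mt-Nd4l stand at 504 FPKM or below, and those on either side at 2592 FPKM or above.

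Spread between the libraries shrank with level and then levelled off. The median CV was 12.7% for genes of 1 to 10 FPKM, 6.63% from 10 to 100, 5.47% from 100 to 1000 and 6.03% above 1000, whereas the CV expected from counting reads alone was 4.83%, 1.92%, 0.830% and 0.307%. Counting error was thus below the observed spread at every level, and by the widest factor at the top. Of the 13574 genes that averaged 1 FPKM or more, 619 (4.56%) differed over 2-fold between their highest and lowest library, and of the 7613 at 10 FPKM or more, 135 (1.77%) did. These 135 comprised 53 immunoglobulin variable genes, 18 pseudogenes of any class and 55 protein-coding genes among others. With any 1 library left out, 329 to 354 genes differed over 2-fold in place of the 619.

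**Figure D4:**
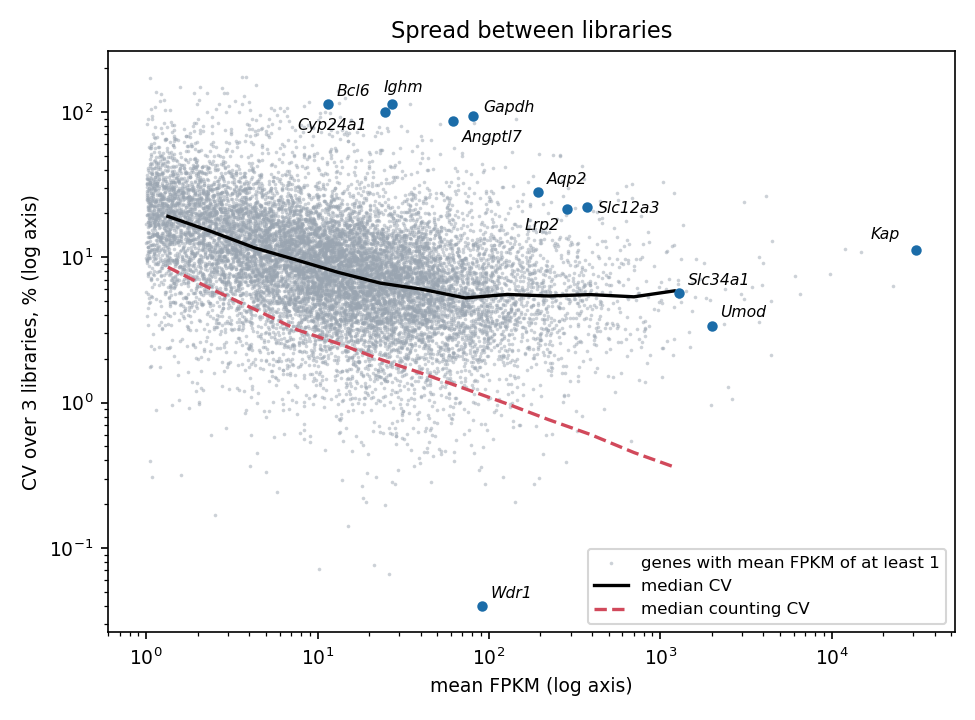
CV over the 3 libraries against mean FPKM (both log axes) for genes of at least 1 FPKM, with the median CV as a solid line and the median counting CV as a dashed line. Angptl7, Gapdh, Ighm, Cyp24a1 and Bcl6 lie well above the median line, and Wdr1 lies at the bottom with a CV of 0.0399%.

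The most variable named genes fell into a few kinds. Angptl7, a secreted angiopoietin-like protein, stood at 3.05, 108 and 74.7 FPKM, the widest ratio among named genes of at least 10 FPKM (35.4). Cyp24a1, which breaks down active vitamin D, stood at 53.2, 6.79 and 14.3 FPKM and was highest in replicate 1, as was Vdr, and Cyp27b1, which makes active vitamin D, was lowest there at 2.13, 4.61 and 4.65 FPKM. Bcl6, a transcriptional repressor, stood at 3.66, 26.5 and 4.31 FPKM with replicate 2 apart, and Abcb1b, a drug efflux pump, at 22.2, 3.06 and 17.6 FPKM with replicate 2 low. Nat8f7 was lowest in replicate 1 at 4.01, 31.97 and 34.1 FPKM, and Tmem254c was highest in replicate 2 at 3.25, 25.3 and 7.18 FPKM. The immunoglobulin genes Ighm, Ighv14-4, Igkv12-41, Igkv2-109, Ighv1-39, Ighv6-3 and Igkv4-53 made up 7 of the 15. At the other end, Wdr1, an actin-disassembly factor, stood at 90.7, 90.8 and 90.8 FPKM, a CV below the 1.14% that counting error gives. Others among the steadiest were Ola1, Wwox, Foxj3, Tars, Lsm14b, Tspo, Dcaf12 and Hoxb6.

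Some of the widest ratios belonged to genes with near-identical copies. Gapdh, the glycolytic enzyme often used as a reference in quantitative PCR, stood at 13.5, 66.1 and 163 FPKM. It has 90 annotated copies, and when reads of gene and copies were summed the ratio of highest to lowest library went from 12.1 to 2.93. The ribosomal gene Rps27 went from 3.21 to 1.10, the enolase copy Eno1b from 5.38 to 1.07, Sumo2 from 3.94 to 1.57 and the pseudogene Rps13-ps1 from 10.1 to 1.44. Of 14 compared genes over 2-fold whose copies held reads, 6 were within 2-fold once summed. Rps27, Eno1b and Sumo2 were added to the comparison after their values were seen, and all of them are among these 6. The count therefore describes the chosen genes only. Among the 30 highest genes, 9 had such a copy, and for Ass1 the copy Gm5424 itself stood at 375, 377 and 419 FPKM. Reads of these genes and their copies cannot be assigned with certainty. Among 18 reference genes, Gapdh had the widest spread, beside a median CV of 6.07% over the list. Ppia, cyclophilin A, stood at 421, 439 and 412 FPKM and Sdha, of succinate dehydrogenase, at 1188, 1163 and 1214 FPKM. Ppia has 15 annotated copies, and its copy Gm10123 stood at 172, 109 and 304 FPKM. With reads of Ppia and its copies summed, the ratio of highest to lowest library went from 1.07 to 1.11. The CV went from 3.25% to 5.62%, so the level and spread of Ppia carry the same limit. No such copy was found for Sdha.

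Replicate 1 lay apart from the others in several genes of the circadian clock, the transcriptional oscillator that also runs in kidney cells. Of 18 clock genes at 1 FPKM or more, 10 (55.6%) were lowest in replicate 1 and 5 highest there, beside 23.6% and 45.03% of all genes at that level. Cry1, a repressor of the clock, stood at 2.94, 12.01 and 12.8 FPKM. Its partners Per2 and Per1 stood at 10.5, 25.4 and 24.01 FPKM and at 9.73, 17.6 and 16.99 FPKM. Nr1d1, REV-ERB alpha of the opposing arm, stood at 63.3, 33.7 and 33.4 FPKM and Npas2, a partner of Arntl, at 2.13, 0.886 and 0.931 FPKM, both highest in replicate 1. Arntl itself was below 1 FPKM in all libraries (0.923, 0.968 and 0.753 FPKM). For Cry1, Per1, Per2, Nr1d1 and Npas2, replicates 2 and 3 lay close together and replicate 1 apart. The labels give no time of sampling.

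**Figure D5:**
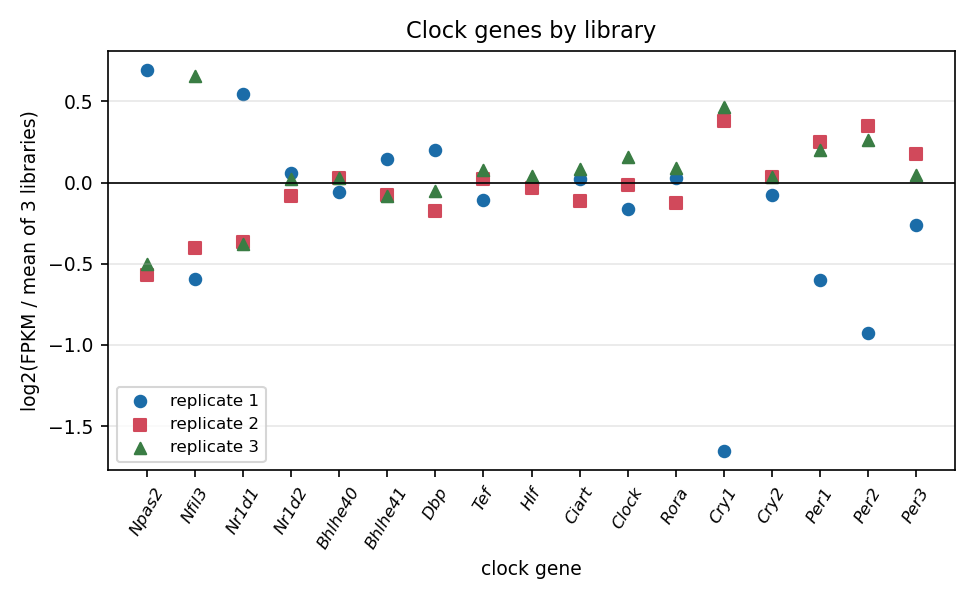
Level of 17 of the 18 clock genes of at least 1 FPKM in each library, as log2 of FPKM over the mean of the 3 libraries (0 is the mean). Replicate 1 lies apart from replicates 2 and 3 for Npas2, Nr1d1, Cry1, Per1 and Per2, lowest for Cry1 at 2.94 FPKM against 12.01 and 12.8.

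Of 30 fatty acid oxidation genes at 1 FPKM or more, 17 (56.7%) were highest in replicate 1, 4 in replicate 2 and 9 in replicate 3. The shares over all genes at that level were 45.03%, 25.5% and 29.4%. Among the 17 were Cyp4a14, a fatty acid hydroxylase, at 7.05, 2.61 and 2.67 FPKM and Acot1, an acyl-CoA thioesterase, at 46.7, 33.4 and 27.6 FPKM. Cyp4a12a, a male-enriched fatty acid hydroxylase, ran the other way at 111, 358 and 314 FPKM. Acaa1b and Fabp3 were highest in replicate 3, at 224, 227 and 233 FPKM and at 79.1, 80.5 and 97.5 FPKM. Immediate-early genes respond within minutes to handling or injury. Of the 17 at 1 FPKM or more, 10 were highest in replicate 1, 2 in replicate 2 and 5 in replicate 3, beside the same shares over all genes. Fos stood at 7.57, 0.314 and 1.04 FPKM and Egr1 at 7.42, 1.21 and 3.73 FPKM, both highest in replicate 1. Dusp1 stood at 28.6, 27.7 and 30.2 FPKM without such a step. The red cell, mural and macrophage genes highest in replicate 1 are described above, and the part of tissue makeup in these values was not tested.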

How the data were processed

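The 3 libraries were taken by their labels, and replicates were numbered in the order of their records. The members, the gene lists and the rules were chosen with earlier results of these data known. Per the submitters' processing notes, HISAT2 2.0.5 was the aligner and mm10 the genome build. Which program, annotation and strand rule counted the reads is not given in the sources used here. The authors deposited 1 FPKM value per gene and library, the reads of a gene per kilobase of its length and per 1 M assigned reads, with replicates kept apart. A further line of the table was emptied for this work and was not used here, and 0 of the columns with per-sample values lacked a sample.

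The deposited FPKM entered unscaled, with no filter unless a mean is stated, and log2(FPKM + 1) served only for correlations. Depth was read from the steps of the values. With a gene's length set to the mean of its GENCODE M21 transcript lengths, 21717 of 25982 genes above 0 gave whole reads in the 3 libraries (tolerance 0.001), 4264 gave them at a length found by search up to 40000 bases and 1 gave none. The recovered reads summed to 100.4% of the assigned reads in each library, which held 64.9, 43.7 and 77.0 M. These scripts were tested on simulated data.

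The design implies no contrast here, so no test was run and no p-value is given. Whether genes differ is described by whether their 3 libraries overlap. Genes were named by rule: the 30 highest, the 6 highest, the lowest and those at 0 of each list or family, the 15 with the widest ratio of highest to lowest library and the 10 with the smallest CV among genes of at least 10 FPKM, and the 5 nearest in rank to each marker. Predicted models and clone-like symbols were left out of the ratio and CV rule. Other members were named to complete a role after their values were seen, and some genes that the rule names are not reported here.

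Gene and transcript copies were searched with BLAST+ 2.17.0 (95% identity over at least 150 bases and at least 50% of the copy's length). Exon overlap came from bedtools 2.31.1, without regard to strand. Promoters are RefSeq windows of 250 bases. Python 3.11.15 with pandas 2.3.3 and numpy 2.4.6 did the rest. Alternatives were another scale, the median, other thresholds, another length, leaving out mitochondrial genes and leaving out each library.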

Additional observations from a re-analysis of the deposited data

How the results depend on the processing

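Results were recomputed under the alternatives that apply to each. Of the summary results, 6 were recomputed with the longest transcript and 4 with reads not divided by length. None is a signed difference that could turn, but the order of mt-Co1 and Gpx3 did turn with the longest transcript. No paired analysis was possible because the results come from no test and a single group. Under median-of-ratios scaling, the shares, the ratio and the correlation among the 8 summary results moved by less than the spread between libraries. The counts of genes, judged by another rule, moved by less than 1.5 times. Leaving out each library in turn gave 329 to 354 genes over 2-fold in place of 619, fewer libraries leaving less range. The correlation of the remaining pair was then 0.988275 to 0.988944, beside a mean over all pairs of 0.988694. The genes over 2-fold numbered 1113 with a mean of at least 0.5 FPKM and 135 with at least 10 FPKM. With each library rescaled to TPM, 14340 genes in place of 13574 reached a mean of 1. Of these, 838 were over 2-fold in place of 619. The correlation was 0.988343 with each library rescaled to TPM, 0.989176 with genes kept by their median level, 0.980957 with 0.1 added in place of 1 and 0.99569 over all genes. Without mitochondrial genes the 10 highest held 13.6% in place of 16.6%. As reads not divided by length they held 12.1%, 669 genes in place of 383 reached 50%, mitochondrial DNA held 6.93% in place of 8.12% and the 10 highest solute carriers 36.9% in place of 38.2%. Per kilobase of the longest transcript, an alternative chosen after seeing the data, these shares were 22.3%, 12.8% and 39.95%, and proximal over thick ascending limb genes was 4.27 in place of 3.91. Of the 143 single levels and list medians or sums, that length moved 71 by over 1.5 times, and leaving out replicates 1, 2 and 3 moved 6, 3 and 7. Rescaling to TPM multiplied the libraries by 1.414 to 1.428, and the median-of-ratios factors were 0.982 to 1.031. Neither could therefore move a level by over 1.5 times. Judged by the spread between libraries, TPM moved 125 of the 143 and median-of-ratios factors moved 6. Depth limits levels below about 0.0390 to 0.0687 FPKM in a gene of 1 kb.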
